A study of Mus musculus with 4 samples.

Results

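The 3 NR4A genes (Nr4a1, Nr4a2 and Nr4a3) and the TOX genes Tox and Tox2 were followed through bulk RNA-seq libraries of CD8 T cells specific for ovalbumin, taken from mouse tumours. They were chosen by symbol, with earlier results of these data known. All 5 were found among the 14082 genes listed in each library's count table and among the 13358 tested. They were isolated with a cell sorter from E.G7 tumours grown under the skin, E.G7 being an ovalbumin-expressing derivative of the EL4 T lymphoma line, and the mice were 6 to 10 weeks old when injected. The group labelled WT (2 libraries) has the genotype Smad4-fl/fl, and the group labelled KO (2 libraries) has Cd8-cre Smad4-fl/fl, so both carry floxed Smad4 alleles and differ in the Cre transgene. Smad4 encodes the partner that receptor-activated SMAD proteins share in TGF-beta signalling. Cd8-cre acts in cells of the CD8 lineage, and other cells of these mice and the tumour cells keep an intact floxed or unmodified gene. Whether each library is 1 mouse, a pool or a repeat of the same RNA is not stated in the labels, so p-values reflect only how far these samples lie apart, which may be technical variation.

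NR4A proteins are orphan nuclear receptors that are made within a short time of T cell receptor engagement, as immediate early genes, downstream of calcium signalling. In T cells that meet antigen continuously they act with NFAT to establish the exhausted state, in which inhibitory receptors are high and cytokine production is low. TOX and TOX2 are DNA-binding proteins of the HMG-box class, induced through calcineurin and NFAT, and TOX is required for exhausted CD8 T cells to form and persist in chronic infection and tumours.

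Summed gene counts were between 24366540 and 26218277 per library. Smad4 was at 31.7 and 29.4 CPM (read counts relative to the library size, scaled with TMM factors) in the libraries labelled WT and at 29.3 and 40.3 CPM in those labelled KO (log2 fold change 0.19, edgeR quasi-likelihood adjusted p = 0.397). Smad4 RNA thus did not fall with the KO label. A count over the whole gene also holds exons outside the floxed part, and every direction below is between libraries by their labels. The Smad4 log2 fold change was 0.40 when KO replicate 1 was left out and -0.063 when KO replicate 2 was, with the lowest and highest edgeR adjusted p over 13 alternatives, 0.00806 and 0.784. Markers of other cells were present in every library: a list of 8 monocyte and macrophage markers summed to between 16955 and 17626 CPM in the WT and between 16810 and 17560 CPM in the KO libraries, led by Lyz2. The sorted cells' own markers Cd8a and Cd8b1 were lower in the KO libraries by 0.93 and 0.96 on the log2 scale. Of 8 neutrophil markers 7 were higher, with sums of 539 CPM in both WT and 1696 and 1737 CPM in the KO libraries. The other, Ly6g, was at 0.70 CPM or less in every library. Heat shock genes were higher for 5 of 5, from 702 and 744 to 1420 and 1325 CPM. Of the natural killer cell markers, Ncr1 and Klrb1c were at 1.05 CPM or less in every library. Eomes, which CD8 T cells also express, was lower in the KO libraries (33.3 and 30.2 against 7.0 and 4.89 CPM). Of 5 stromal markers 3 were higher, of 4 B cell markers 2, and of 4 patrolling monocyte markers 2 were lower. Of 6 dendritic cell markers 2 were higher and 1 lower. The higher ones were Siglech (67.1 and 64.9 against 168 and 174 CPM) and Flt3 (29.0 and 33.5 against 48.5 and 45.9 CPM). Cd209a was the lower one, at 52.5 and 51.3 against 42.0 and 40.4 CPM. Cd4 was higher, at 26.9 and 32.2 against 63.1 and 67.7 CPM, and the other markers of its list did not pass. Over all tested genes 10.1% were called higher and 11% lower. Whether any of these differences has a part in the results on the NR4A and TOX genes was not tested, and in bulk samples fewer cells of a type and less RNA per cell cannot be told apart.

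The stretches before the start sites of the 3 NR4A genes are shown because all 3 carry repeated matches to the core of the cyclic AMP response element, the site of CREB and ATF factors. They come from RefSeq promoter windows on GRCm38.p6, each from 250 bases before to 50 bases after a start site, written 5′ to 3′ on the gene's strand, with the core TGACG or its reverse complement CGTCA in capitals. Each is printed up to the first base that GENCODE M21 annotates as exon, which in Nr4a3 leaves 98 bases.
Nr4a1, chr15:101266596-101266845, plus strand: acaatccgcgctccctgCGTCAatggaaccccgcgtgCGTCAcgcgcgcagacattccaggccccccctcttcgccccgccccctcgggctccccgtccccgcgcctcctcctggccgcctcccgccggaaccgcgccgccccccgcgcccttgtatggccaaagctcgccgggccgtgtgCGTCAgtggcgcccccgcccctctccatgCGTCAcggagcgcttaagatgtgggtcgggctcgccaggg
Nr4a2, chr2:57124004-57124253, minus strand: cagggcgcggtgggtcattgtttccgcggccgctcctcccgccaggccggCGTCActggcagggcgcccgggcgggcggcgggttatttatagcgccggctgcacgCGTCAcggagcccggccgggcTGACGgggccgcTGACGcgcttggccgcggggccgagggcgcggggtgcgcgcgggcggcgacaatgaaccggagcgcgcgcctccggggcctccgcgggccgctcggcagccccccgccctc
Nr4a3, chr4:48045055-48045152, plus strand: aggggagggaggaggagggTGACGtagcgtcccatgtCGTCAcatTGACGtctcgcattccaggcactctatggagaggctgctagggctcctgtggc

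Each of the 3 NR4A windows held 4 matches to TGACG, counted on both strands, so that the full palindromic element would count on each strand. At least 1 match was found in 20.8% of the 32851 promoter windows of the same length in the RefSeq table, and at least 4 in 0.231% (76 windows). The core contains a CpG, and the NR4A windows are rich in CpG: among the 5543 windows with at least 26 CpG, the lowest number in the 3 windows, 0.92% held 4 or more. In Nr4a1 the matches began 233, 213, 69 and 40 bases before the start site, in Nr4a2 at 200, 144, 123 and 111, and in Nr4a3 at 231, 213, 205 and 147, the last of which lies beyond the printed stretch. Of 11 other immediate early genes with a window, 7 held at least 1 match, 3 at least 2 and 0 held 4. The SMAD word CAGAC had 3 matches in the Nr4a3 window, of which a pair share a base, 1 in Nr4a1 and none in Nr4a2. Those in Nr4a3 began 44, 8 and 4 bases before the RefSeq start site. All 3 lie beyond the printed stretch, past the first base that GENCODE M21 annotates as exon. Of all windows, 49.6% held at least 1 and 3.90% at least 3. The NFAT core GGAAA had 1 match in Nr4a2 (61.3% of all windows held it), and TATAAA 1 in Nr4a2 (13.6%). The 3 windows held no match to the AP-1 word TGANTCA, a loose MEF2 pattern or AGGTCA. The last is the core of the element that NR4A proteins bind. The AP-1 word, the MEF2 pattern and AGGTCA were found in 7.81%, 3.69% and 16.3% of all windows. The MEF2 pattern allowed any base at its 4 middle positions and is looser than the consensus. Tox2 has 5 windows in the table, of which 1 held a CRE core, a single match. Its first window held 1 match to the loose MEF2 pattern, with C among the middle bases, so it is not shown to be a MEF2 site. A pair of windows that start 1 base apart each held 1 NFAT, 1 SMAD and 1 TATA box match. Tox was not matched in the table. These matches describe letters, and the RNA data do not show which factor binds there.

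**Figure D1:**
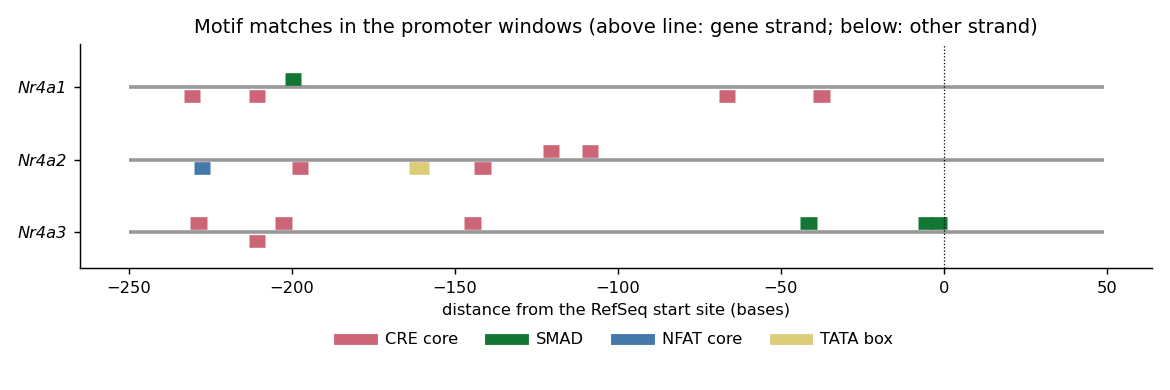
Positions of motif matches in the RefSeq promoter windows of Nr4a1, Nr4a2 and Nr4a3, in bases from the start site (dotted line at 0); blocks above each line are on the gene's strand and blocks below on the other. Each gene has 4 matches to the CRE core, all before the start site.

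Among the NR4A genes, Nr4a2 fell most in the libraries labelled KO, Nr4a3 fell by less, and Nr4a1 did not pass the test, with an interval that excludes a change as large as that of its paralogs. Nr4a1 (NUR77), the family member widely used as a reporter of T cell receptor signal, was at 489.3 and 488.8 CPM in the WT and 497.2 and 500.1 CPM in the KO libraries. The KO values were above the WT values by a small step, with a log2 fold change of 0.028 and a 95% confidence interval of -0.083 to 0.14 (edgeR adjusted p = 0.761). Its adjusted p over 13 alternatives ran from 0.131, with library totals alone as the scaling, to 0.897. How much of the Nr4a1 RNA came from T cells was not tested. The monocyte and macrophage markers summed to between 16810 and 17626 CPM per library. A list of CD8 T cell markers summed to between 1326 and 2071 CPM. Nr4a2 (NURR1) is a paralog also needed for dopamine neurons to develop. It was at 413.0 and 411.3 CPM in the WT and at 152.0 and 159.1 CPM in the KO libraries. The libraries of a group lay close together and the groups far apart, a 2.65-fold fall (log2 fold change -1.41 ± 0.056 SE, edgeR adjusted p = 4.42e-09). Nr4a3 (NOR1), the third paralog, was at 63.8 and 58.4 CPM in the WT and at 31.8 and 37.3 CPM in the KO libraries. It fell 1.77-fold (log2 fold change -0.82 ± 0.10 SE, edgeR adjusted p = 0.000111).

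Of the TOX genes, Tox fell, and Tox2 was higher in both KO libraries without passing the test. Tox was at 305.3 and 297.0 CPM in the WT and at 203.5 and 200.2 CPM in the KO libraries, a 1.49-fold fall (log2 fold change -0.58 ± 0.055 SE, edgeR adjusted p = 1.01e-05). Tox2 was at 6.63 and 4.72 CPM in the WT and at 9.33 and 8.75 CPM in the KO libraries, from counts of 157, 118, 248 and 236. The difference was 1.59-fold (log2 fold change 0.67, 95% confidence interval 0.18 to 1.16, edgeR adjusted p = 0.0524). Adjusted p-values of Tox2 over 13 alternatives ran from 0.0240 to 0.388, and 7 of them passed. Without WT replicate 1 its log2 fold change was 0.93, and without WT replicate 2 it was 0.45. Markers of T follicular helper cells, in which Tox2 is also used, were low. Cxcr5 was between 2.37 and 4.74 CPM and Bcl6 between 4.44 and 5.36 CPM, with overlap between the groups. Cd4 was higher in the KO libraries (26.9 and 32.2 against 63.1 and 67.7 CPM), and whether this has a part in the Tox2 values was not tested.

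Across the 5 genes, 3 were called lower and 0 higher while 2 missed the threshold, against 11% of all tested genes lower, 10.1% higher and 21.2% called in either direction. The 5 genes and all lists were chosen with earlier results of these data known. Their shares beside those of all tested genes are thus a description and no independent test of enrichment. Tox2 was the 1 gene of the set higher at an unadjusted p under 0.05 (edgeR). Higher calls among the 5 were also 0 with DESeq2 and limma-voom, but Tox2 was called higher in 7 of the 13 alternatives. None of the 5 genes overlapped between the groups, a pattern that 59.8% of all tested genes share. Nr4a2, Nr4a3 and Tox kept their fall under all 13 alternatives, with log2 fold changes between -1.44 and -1.32 for Nr4a2, -0.94 and -0.71 for Nr4a3, and -0.59 and -0.49 for Tox. Calls over all genes were 1354 higher and 1472 lower, a share of 47.9% higher that became 67.5% with library totals alone. By position on mm10 (GENCODE M21, all protein coding), Nr4a1 lies on chromosome 15 from 101254269 to 101274795, Nr4a2 on chromosome 2 from 57106830 to 57124003, and Nr4a3 on chromosome 4 from 48045153 to 48086447. Tox lies on chromosome 4 from 6686353 to 6991557 and Tox2 on chromosome 2 from 163203125 to 163324170. Tox has an antisense gene, Gm11802, on the other strand, and because the counting is not stated to use strand, reads of the pair cannot be told apart. No 50-base word of the Nr4a1, Nr4a2, Tox or Tox2 transcripts occurs in a transcript of another gene, and 3 of 5986 words of Nr4a3 occur in Dcdc2a. The paralogs thus share no exact word of this length, and exchange of reads through shorter or inexact matches was not assessed.

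**Figure D2:**
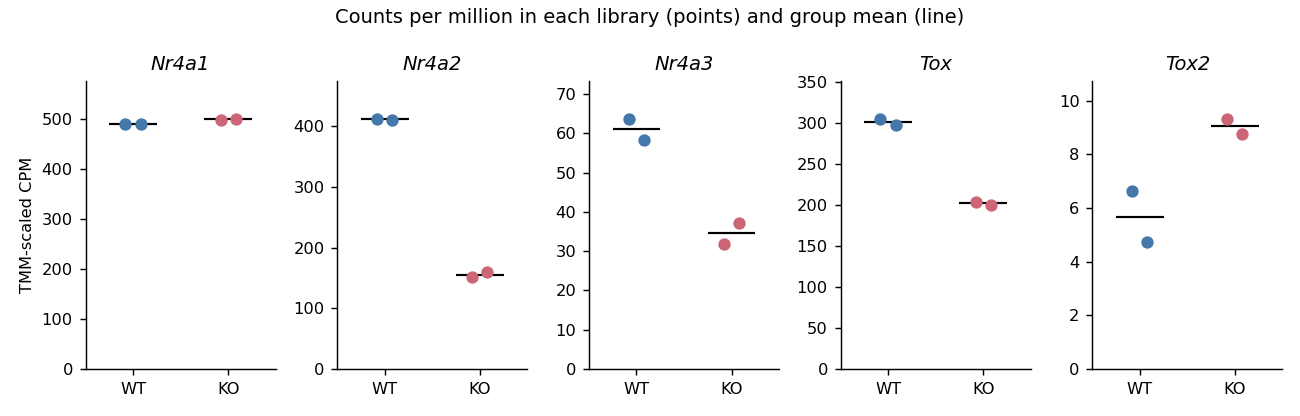
TMM-scaled CPM of each gene (vertical axes, each from 0) in the 2 libraries labelled WT and the 2 labelled KO; points are libraries and lines group means. Nr4a2, Nr4a3 and Tox are lower in both KO libraries, Nr4a1 lies between 488.8 and 500.1 CPM, and Tox2 is low everywhere and higher in both KO libraries.

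Per length of exon, the order of the 5 genes was the same in every library: Nr4a1, Nr4a2, Tox, Nr4a3 and then Tox2, and no neighbours in that order overlapped inside a group. Nr4a1 stood at 139 ± 0.108 CPM per kilobase in the WT and 142 ± 0.586 in the KO libraries (SD, n = 2 each), at percentile 97.2 or 97.3 of the tested genes in every library. Nr4a2 stood at 102 ± 0.301 and 38.3 ± 1.24, Tox at 39.6 ± 0.770 and 26.5 ± 0.308, Nr4a3 at 10.2 ± 0.633 and 5.77 ± 0.650, and Tox2 at 1.67 ± 0.396 and 2.66 ± 0.121 CPM per kilobase. For scale, Cd8a was at 127 ± 3.25 and 66.9 ± 1.60 CPM per kilobase, so Nr4a1 and Cd8a stood near each other in the WT but not in the KO libraries.

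The makeup of the NR4A family, and of the pair of Tox and Tox2, therefore differed between the labelled groups. Nr4a1 made up 55.4% and 55.6% of summed NR4A transcript per length in the WT and 76.8% and 75.8% in the KO libraries. Nr4a2 made up 40.4% and 40.5% in the WT and 20.3% and 20.9% in the KO libraries. Nr4a3 was the minor member throughout, at 4.23% and 3.90% against 2.88% and 3.31%. The NR4A sum was 251.1 ± 1.04 CPM per kilobase in the WT and 186 ± 2.47 in the KO libraries, 0.741 of the WT level. Within the pair of Tox and Tox2, Tox2 took 4.63% and 3.43% in the WT and 9.30% and 8.90% in the KO libraries. These Tox2 shares rest on 118 to 248 reads, and Tox2 itself did not pass the test. Tox4, another TOX gene, had a mean of 134 CPM in the WT and 122 CPM in the KO libraries and is not part of the pair.

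**Figure D3:**
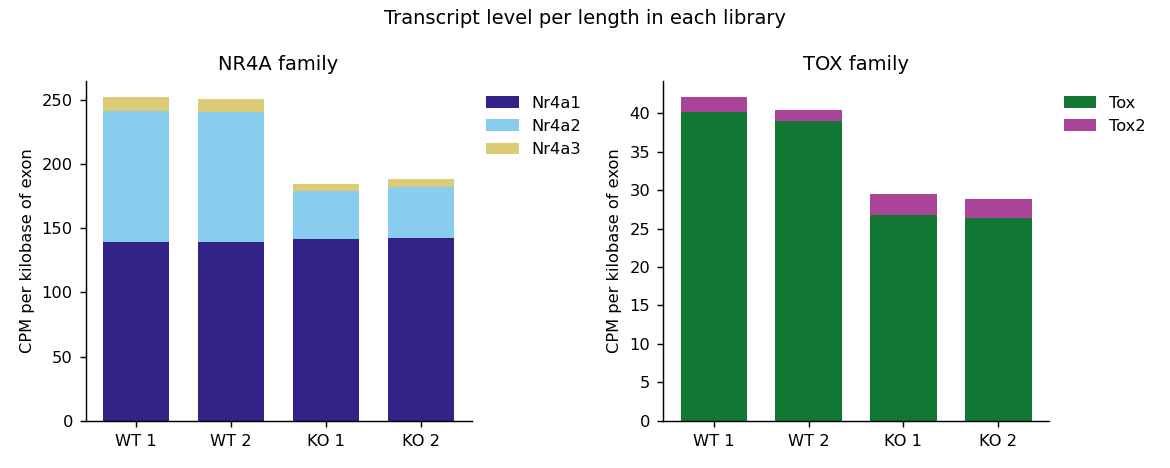
Stacked CPM per kilobase of exon for the NR4A genes (left) and the TOX genes (right) in each of the 4 libraries; colours are genes. The Nr4a1 part measures 139 to 143 in every library while the Nr4a2 part is smaller in the libraries labelled KO, and there the Tox2 part is larger on a smaller Tox part.

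Ratios of paralogs within a library do not depend on the scaling between libraries, and all 4 that were compared separated the groups. The log2 ratio of Nr4a2 to Nr4a1 per length was -0.45 and -0.46 in the WT and -1.92 and -1.86 in the KO libraries, a change of -1.43, or from 0.729 to 0.270 Nr4a2 transcripts per Nr4a1 transcript. The ratio of Nr4a3 to Nr4a1 changed by -0.85 and that of Nr4a2 to Nr4a3 by -0.58, so Nr4a2 moved further than Nr4a3. Tox2 over Tox changed by 1.27. With 2 libraries a group, the exact two-sided permutation test cannot go below p = 0.333, which each of these 4 comparisons reached (adjusted p = 0.333). The ratios use the counts already tested gene by gene, so their separation is no independent evidence of a change.

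Relative to CD8 chain transcripts Nr4a2 stayed lower in the KO libraries, whereas Tox and Nr4a3 did not; relative to CD3 chain transcripts all 3 were lower in both KO libraries. Over the summed CD8 chain genes Cd8a and Cd8b1, Nr4a2 was lower in both KO libraries (log2 ratio -1.72 and -1.70 against -2.20 and -2.15, a change of -0.46). Tox, which fell relative to all RNA, was higher over CD8 (-3.07 and -3.08 against -2.68 and -2.73, a change of 0.37). Nr4a3 over CD8 overlapped between the groups (-4.98 and -5.08 against -5.02 and -4.81, a change of 0.12; exact permutation p = 0.667). Nr4a1 and Tox2 were higher over CD8, by 0.97 and 1.64 on the log2 scale. Over the CD3 chain genes Cd3d, Cd3e, Cd3g and Cd247, which the T lymphoma cells of the tumour can also express, Nr4a2 changed by -1.0, Nr4a3 by -0.42 and Tox by -0.17, while Nr4a1 changed by 0.44 and Tox2 by 1.10. Of these 10 ratios, 9 separated the groups at the smallest exact permutation p the design allows, 0.333 (adjusted p = 0.370). The ratios to CD8 and CD3 were added after those chains were seen to differ between the groups. A gene nearly flat relative to all RNA, such as Nr4a1, therefore separates through the chains alone. The 9 separations are thus no added evidence of a change in the 5 genes.

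**Figure D4:**
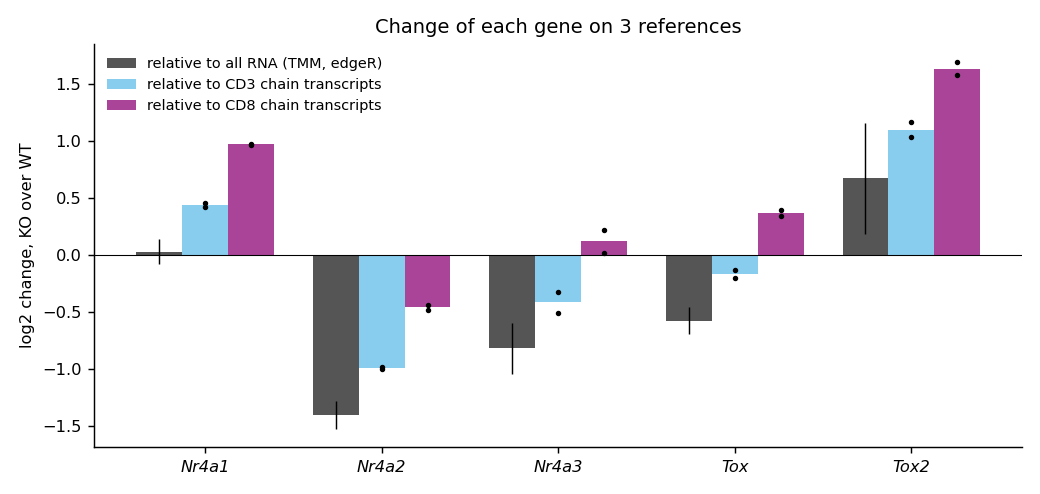
Log2 change of each gene, KO over WT, relative to all RNA (edgeR with TMM, bars with 95% confidence intervals), to CD3 chain transcripts and to CD8 chain transcripts (bars are differences of group means, dots the 2 KO libraries against the WT mean). Nr4a2 is below 0 on each of the 3 references, Tox2 is above 0 on each, and Tox changes sign over CD8. Nr4a3 over CD8 overlaps between the groups.

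T cell receptor and calcineurin-NFAT genes, which carry the signal that induces NR4A and TOX genes, were mostly lower or did not pass. The list was chosen with earlier results of these data known, so its share of lower genes is no independent evidence. The call was lower for 8 of 16 tested, higher for 1 and not passed for 7 (11% lower and 10.1% higher over all tested genes), and the median log2 fold change was -0.43 against -0.0037 over all tested genes. Nfatc1, an NFAT factor, fell 2.24-fold from 202 and 226 to 93.0 and 98.3 CPM, and Ppp3cc, a catalytic subunit of calcineurin, fell 2.19-fold from 26.8 and 25.8 to 12.7 and 11.3 CPM. The kinase genes Prkcq and Zap70, whose products relay the receptor's signal, fell 2.84-fold and 1.51-fold. The smallest adjusted p among the 4 was 1.35e-07 (Nfatc1) and the largest 8.55e-05 (Ppp3cc, edgeR quasi-likelihood). The 1 higher gene was Lat, at 342 and 348 against 468 and 452 CPM (log2 fold change 0.42, edgeR adjusted p = 0.00013). The other calcineurin genes Ppp3ca, Ppp3cb and Ppp3r1 did not pass, and neither did Rcan1, a calcineurin inhibitor whose own gene responds to NFAT, which lay between 23.1 and 30.7 CPM in all libraries.

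Other immediate early genes split in both directions. The call was higher for 5 of 16 tested, lower for 5 and not passed for 6, beside 10.1% higher and 11% lower over all tested genes, and their median was -0.23. The AP-1 gene Jun rose 1.38-fold (455 and 459 to 639 and 626 CPM) and the zinc finger factor gene Egr1 rose 1.37-fold (445 and 482 to 640 and 629 CPM). Dusp2, a phosphatase of MAP kinases, fell 2.27-fold (250 and 220 to 96.0 and 111 CPM), and Ier2 fell 1.42-fold. For these 4 the adjusted p ranged from 5.55e-07 (Dusp2) to 0.000101 (Egr1, edgeR quasi-likelihood). Fos, the partner of Jun, was at 1118 and 1111 against 1232 and 1230 CPM and did not pass (edgeR adjusted p = 0.0575). Heat shock genes were higher in the same libraries, with Hspa1a at 180 and 197 against 414 and 389 CPM.

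Genes of factors known to act on NR4A promoters mostly did not pass. Of 12 genes for MEF2 proteins, CREB and its coactivators, and class IIa histone deacetylases, which repress MEF2 targets, 2 were lower and 0 higher, and 10 missed the threshold (median -0.084), a share of lower genes near the 11% over all tested genes. The count of higher genes was also 0 with DESeq2 and limma-voom and at an unadjusted p under 0.05. Hdac7, a deacetylase that restrains Nr4a1 in thymocytes, fell 1.56-fold (54.8 and 54.4 to 38.0 and 31.9 CPM, edgeR adjusted p = 0.000786), though it overlaps Slc48a1 on the other strand and is uncertain. Creb1 fell 1.23-fold (47.4 and 48.9 to 39.7 and 38.5 CPM, edgeR adjusted p = 0.0360), a call lost in 5 of 13 alternatives, whose adjusted p ran from 0.0243 to 0.222. Those were DESeq2 (0.0610), library totals alone (0.116), and the fits without WT replicate 1 (0.133), WT replicate 2 (0.222) or KO replicate 2 (0.0540). Rxra and Rxrb, whose products pair with NR4A1 and NR4A2 on DNA, and Tox4, a ubiquitous TOX relative that overlaps Rab2b and Mettl3 on the other strand, did not pass. Without KO replicate 2, Rxra was called higher.

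Genes of inhibitory receptors, and of exhaustion and effector transcription factors, were mostly lower in the KO libraries. Both lists were chosen with earlier results of these data known, so their shares of lower genes are no independent evidence. Of 11 inhibitory receptor genes 8 were lower and 1 higher, and 2 missed the threshold (median -0.50), where 11% of all tested genes were lower and 10.1% higher. Havcr2 (TIM-3) fell 3.06-fold, Ctla4 2.44-fold, Lag3 2.15-fold and Tigit 2.06-fold, with adjusted p-values from 2.41e-08 for Ctla4 to 8.86e-08 for Havcr2 (edgeR quasi-likelihood). These 4 had the smallest p of the list, and the remaining lower genes were Cd160 (log2 fold change -1.56), Pdcd1 (PD-1, -0.50), Vsir (-0.32) and Entpd1 (-0.22). The 1 higher receptor gene was Btla (log2 fold change 0.48). Of 15 exhaustion and effector transcription factor genes 10 were lower and 2 higher, and 3 missed the threshold (median -0.30), against the same 11% and 10.1%, and without WT replicate 1 there were 6 lower. Eomes, a T-box factor of effector and exhausted cells, fell 5.34-fold (33.3 and 30.2 to 7.0 and 4.89 CPM), and Bach2, a repressor that holds back effector differentiation, fell 3.95-fold. Bhlhe40 fell 1.88-fold and Id2 1.62-fold, with adjusted p from 8.89e-08 (Bhlhe40) to 2.26e-06 (Bach2) over these 4 genes (edgeR quasi-likelihood). The 2 higher factor genes were Tcf7, which rose 1.51-fold (354 and 358 to 580 and 497 CPM), and Id3, which rose 1.36-fold (32.3 and 31.0 to 44.9 and 41.3 CPM). Batf, an AP-1 factor that works with IRF4, was at 93.2 and 92.5 against 90.1 and 77.6 CPM and did not pass. Beside all of these lists, Cd8a and Cd8b1 were lower, and Cd4 and 7 of 8 neutrophil markers higher. Of 6 dendritic cell markers 2 were higher, Siglech among them, and 1 was lower.

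**Figure D5:**
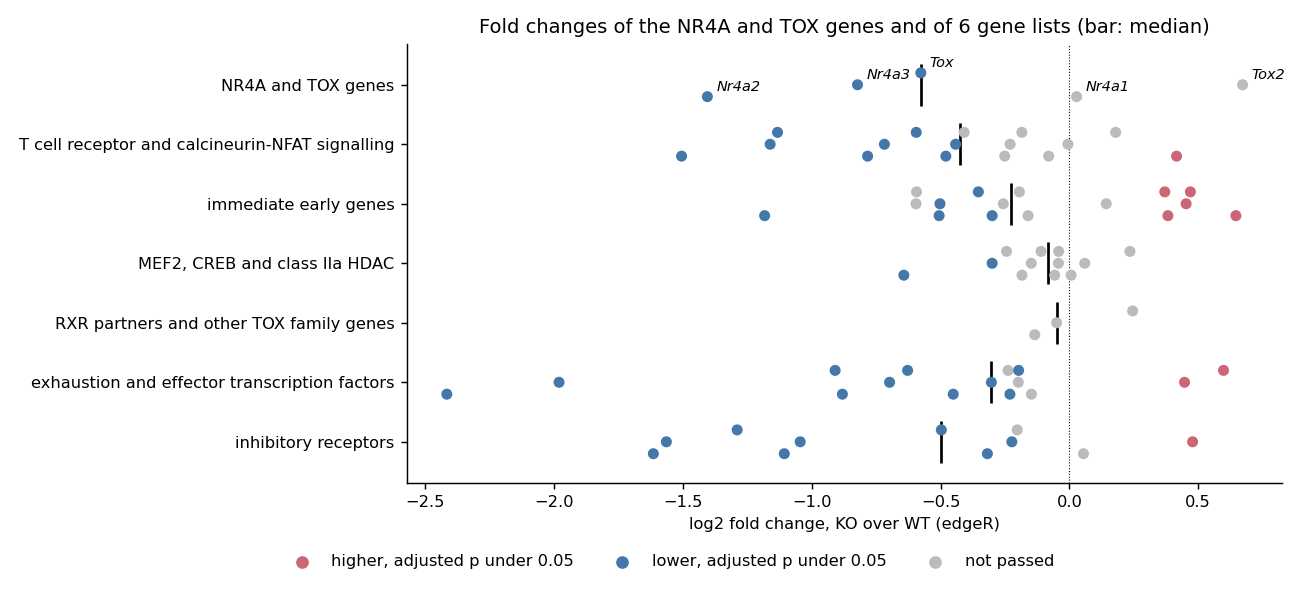
Log2 fold change, KO over WT (edgeR), of each tested gene of the NR4A and TOX set and of 6 related lists; points are genes, coloured by call at an adjusted p under 0.05, and vertical bars are list medians. The 5 genes span from -1.41 for Nr4a2 to 0.67 for Tox2, and immediate early genes lie on both sides of 0.

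The genes whose pattern was most like each of the 5 were found by the Euclidean distance between log2 CPM, centred on each gene's mean, over the 4 libraries, among 9868 named genes with a mean of at least 5 CPM. Nearest to Nr4a2 were Acsbg1 (distance 0.0541), the inhibitory receptor gene Klrc1 (0.0612) and Sh2d2a, an adaptor of T cell receptor signalling (0.0956). For Nr4a3 they were Smad7, an inhibitor of TGF-beta signalling (0.0367), mt-Nd5 (0.0618) and the GTPase gene Gem (0.0819). For Tox they were Trerf1 (0.0134), the PI3-kinase regulatory subunit gene Pik3r1 (0.0195) and Slc22a4 (0.0200). Nr4a1 was nearest to Uqcc2 (0.00281), Appl1 (0.00601) and Arhgef6 (0.0104), which, like it, were nearly flat, and Tox2 was nearest to Zfp775 (0.102), Apbb2 (0.121) and Sfrp2 (0.134). Between the 5 genes themselves, Nr4a3 and Tox were closest (0.312) and Nr4a2 and Tox2 farthest apart (2.12). Over 4 libraries such a distance reflects mainly the size of the difference between the groups.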

How the data were processed

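Bulk RNA-seq of 4 libraries (2 labelled WT, 2 labelled KO) was used, grouped by sample title. The authors deposited a whole-number read count and an FPKM value per gene, per the file headers. The submitters' processing notes list build mm10 and, without roles, edgeR, DESeq2, featureCounts, Bowtie2 and Trim Galore 0.4.4. Strandedness and annotation: not given in the sources used here. FPKM values as deposited entered no edgeR test and served 1 alternative for paralog ratios; the lengths they imply match GENCODE M21 exon lengths within 0.1% for at least 98.3% of genes with 50 or more counts. The count test was that of edgeR 4.0.16 under R 4.3.3 (TMM, filterByExpr at its minimum count of 10 and minimum total of 15, robust quasi-likelihood fit, Benjamini-Hochberg adjustment over all 13358 tested genes, threshold 0.05), after checking the step on simulated data. The filter removed 724 genes and all 5 NR4A and TOX genes passed it. Log2 CPM used a prior count of 2. CPM per kilobase divides by M21 exon length. Summed counts of 24366540 to 26218277 leave Tox2, at 118 to 248 reads, with the widest error of the 5. Replicates differed by more than counting noise (chi-square per degree of freedom 7.74 and 10.0) and were kept separate.

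The 5 genes and all lists were chosen with earlier results of these data known. Genes were named by rule: the 5, Smad4, up to 4 tested members of each list by p, and the 3 genes of most like pattern. Given outside that rule are Lat, Ppp3ca, Ppp3cb, Ppp3r1, Rcan1, Cd160, Pdcd1, Vsir, Entpd1, Btla, Fos, Hspa1a, Batf, Tcf7, Id3 and the cell type markers. Alternatives were DESeq2 1.42.0, limma-voom (limma 3.58.1), other scalings and filters, a replicate block, and each library left out in turn; leaving out mitochondrial genes was chosen after seeing the data, since they took 10.4% and 10.2% of WT and 6.57% and 6.99% of KO counts. A planned comparison of protein sequences was not made, as no protein table was used here.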

Additional observations from a re-analysis of the deposited data

How the results depend on the processing

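Nr4a1, Nr4a2, Nr4a3 and Tox kept their direction and their side of the threshold under all 13 alternatives. Tox2 passed under 7: its log2 fold change was 0.68 with RLE size factors, 0.76 with library totals alone, 0.68 with upper quartile scaling, 0.68 for genes of at least 5 CPM, 0.69 with the replicate block, 0.68 without mitochondrial genes (adjusted p = 0.0492, 0.0287, 0.0495, 0.0429, 0.0245 and 0.0497, edgeR) and 0.72 without KO replicate 2. The cause was not tested. The replicate block, whose numbers need not pair the samples (correlation of within-group differences -0.015), called 1393 genes higher and 1522 lower and changed no other call of the 5. Library totals alone gave 2105 higher genes, and list medians of -0.34 (receptor and NFAT), -0.14 (immediate early), 0.0016 (MEF2 and CREB, with 1 lower gene, as with DESeq2), 0.035 (RXR and TOX relatives), -0.22 (exhaustion factors) and -0.41 (inhibitory receptors).

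Leaving out each library in turn gave 714 to 1605 genes higher (714 without WT replicate 1, 837 without WT replicate 2) and 831 to 1787 lower (831 and 922 without those). Log2 fold changes ran from 0.45 to 0.93 for Tox2 and from -0.063 (without KO replicate 2) to 0.40 for Smad4. Receptor and NFAT genes had 1 to 2 higher and medians of -0.45 to -0.36, immediate early genes medians of -0.29 to -0.13, MEF2 and CREB genes 1 to 3 lower and medians of -0.14 to -0.077, and RXR and TOX relatives 0 to 1 higher and medians of -0.11 to -0.020. Exhaustion factors had 1 to 2 higher and 6 to 11 lower, and inhibitory receptors 0 to 1 higher.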
